A study of Mus musculus with 4 samples.

Results

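The 31 genes described here encode the enzymes of glycolysis, the main glucose and lactate carriers, and the enzymes that admit pyruvate to the mitochondrion. They were taken by name from a table of 24499 genes, and all 31 were found in it. The table gives RNA levels of growth plate-like chondrocytes (GPLC), a mouse cell line of wild-type genotype, named for their likeness to the cartilage cells of the growing bone end. The cells were kept for 1 day, 3 days, 5 days or 10 days in DMEM with fetal bovine serum, ascorbic acid and an insulin, transferrin and selenium supplement, which all 4 groups share, and the study compared these days by RNA sequencing. The labels list 1 sample per day, whereas the table holds 15 libraries, 3 for day 1 (numbered 1, 3 and 4) and 4 for each later day (numbered 1 to 4). What the numbers stand for is not stated, so every p reported reflects the spread among these libraries alone, which may be technical. Libraries 3 and 4 were the closest pair on days 1, 3 and 5. Their chi-square per degree of freedom over genes was 5.95, 4.99 and 14.6. Other pairs were further apart, at 40.5 or more on day 3 and 48.9 or more on day 5. On day 10 libraries 3 and 4 were at 119 and not the closest pair. They were counted as separate libraries in the calls below, whose SE and p may be too small if they are not independent.

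Glycolysis splits glucose into pyruvate in the cytosol and yields ATP without oxygen. Pyruvate is either reduced to lactate by lactate dehydrogenase and exported by monocarboxylate carriers, or enters the mitochondrion through the pyruvate dehydrogenase complex, which pyruvate dehydrogenase kinases switch off. Cartilage has no blood vessels, and growth plate chondrocytes are known for relying on glycolysis and for the activity of hypoxia-inducible factors, several of whose known targets are among the genes described here.

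Between 12492537 and 18841621 gene reads were recovered per library, and 1 read was worth 0.0523 to 0.0787 CPM (reads of a gene relative to all gene reads of the library, scaled by the authors for library composition). Markers of cartilage cells were present on every day, with a summed level of 1991 to 25663 CPM over 9 genes, and 8 osteoblast markers summed to 5066 to 64477 CPM. The highest osteoblast sum and the lowest chondrocyte sum both belonged to library 2 of day 10, which stands apart in the results below. All 6 markers of dividing cells fell by day 10, when 25.1% of all genes tested did. Their sum went from 2267 to 2794 CPM on day 1 to 530 to 1150 CPM. In such bulk RNA, fewer cells of a type and less RNA per cell cannot be told apart.

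The promoters of 4 of these genes are shown because their levels moved in opposite directions (Ldha and Ldhb) or stood furthest from the other libraries in library 2 of day 10 (Pgk1 and Slc16a3, apart from Aldoc). Each is the RefSeq sequence of build GRCm38.p6 from 250 bases before to 50 after a transcription start, written 5′ to 3′ on the gene's strand. Capitals mark ACGTG and GCGTG, the core letters bound by hypoxia-inducible factors, or their reverse complements CACGT and CACGC. The regions are chr7:46845554-46845853 on the plus strand for Ldha, chr6:142507908-142508207 on the minus strand for Ldhb, chrX:106186850-106187149 on the plus strand for Pgk1 and chr11:120948817-120949116 on the plus strand for Slc16a3.
Ldha: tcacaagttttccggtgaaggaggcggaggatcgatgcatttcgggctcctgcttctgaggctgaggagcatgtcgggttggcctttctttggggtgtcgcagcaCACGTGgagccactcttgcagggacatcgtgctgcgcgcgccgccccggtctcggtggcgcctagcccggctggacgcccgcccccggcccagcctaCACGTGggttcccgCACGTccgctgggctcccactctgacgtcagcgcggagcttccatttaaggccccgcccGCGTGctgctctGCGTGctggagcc
Ldhb: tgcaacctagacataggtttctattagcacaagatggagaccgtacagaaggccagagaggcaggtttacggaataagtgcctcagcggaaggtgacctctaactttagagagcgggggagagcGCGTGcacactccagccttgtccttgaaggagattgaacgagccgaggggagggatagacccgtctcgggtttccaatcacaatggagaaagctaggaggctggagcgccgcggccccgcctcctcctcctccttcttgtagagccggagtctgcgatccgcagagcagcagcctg
Pgk1: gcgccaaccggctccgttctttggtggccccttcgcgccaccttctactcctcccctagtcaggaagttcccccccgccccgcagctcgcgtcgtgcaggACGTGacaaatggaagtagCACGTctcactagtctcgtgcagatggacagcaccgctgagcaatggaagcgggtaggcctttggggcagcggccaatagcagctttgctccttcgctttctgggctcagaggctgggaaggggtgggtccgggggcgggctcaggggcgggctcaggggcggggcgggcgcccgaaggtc
Slc16a3: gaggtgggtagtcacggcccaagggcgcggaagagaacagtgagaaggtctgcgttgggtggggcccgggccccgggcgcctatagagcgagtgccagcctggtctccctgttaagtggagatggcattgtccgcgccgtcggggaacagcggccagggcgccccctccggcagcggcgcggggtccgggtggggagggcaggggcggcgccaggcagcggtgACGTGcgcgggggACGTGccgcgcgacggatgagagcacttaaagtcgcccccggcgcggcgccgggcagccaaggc

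Both strands were searched, and CACGTG, which holds ACGTG on each strand, was counted once per strand. Ldha has a further listed start, whose promoter (chr7:46846832-46847131) held 0 matches to ACGTG and 2 to GCGTG. The Ldha promoter shown held 5 and 2, that of Ldhb 0 and 1, and those of Pgk1 and Slc16a3 2 and 0 each. Promoter sequences were matched for 30 of the 31 genes, with 46 starts, and at least 1 of the motifs lay in a promoter of 27 of these genes (90%), compared with 46.7% of all 27025 genes with a promoter. Counted over promoters, the shares were 80.4% of 46 and 43.8% of 32851. The promoters of the glycolysis genes were also richer in G and C, with a median of 61.0% against 52.7%. Among promoters at or above that median, 95.8% of 24 and 70.1% of 8832 held a motif. A match describes the letters in this window and is not a binding site.

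Together the 31 genes summed to between 5117 and 5478 CPM on day 1. The range was 3833 to 4428 CPM on day 3, then 3726 to 3879 for day 5, and 4215 to 8533 for day 10. The day 3 and day 5 libraries all lay below those of day 1, while day 10 overlapped it. Pkm, the pyruvate kinase gene, and Ldha, the A chain of lactate dehydrogenase, were the most abundant, at 2311 to 2484 CPM together on day 1 and 1223 to 1264 on day 5. Library 2 of day 10 was the highest of all 15, at 8533 CPM or 0.81% of its reads.

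**Figure D1:**
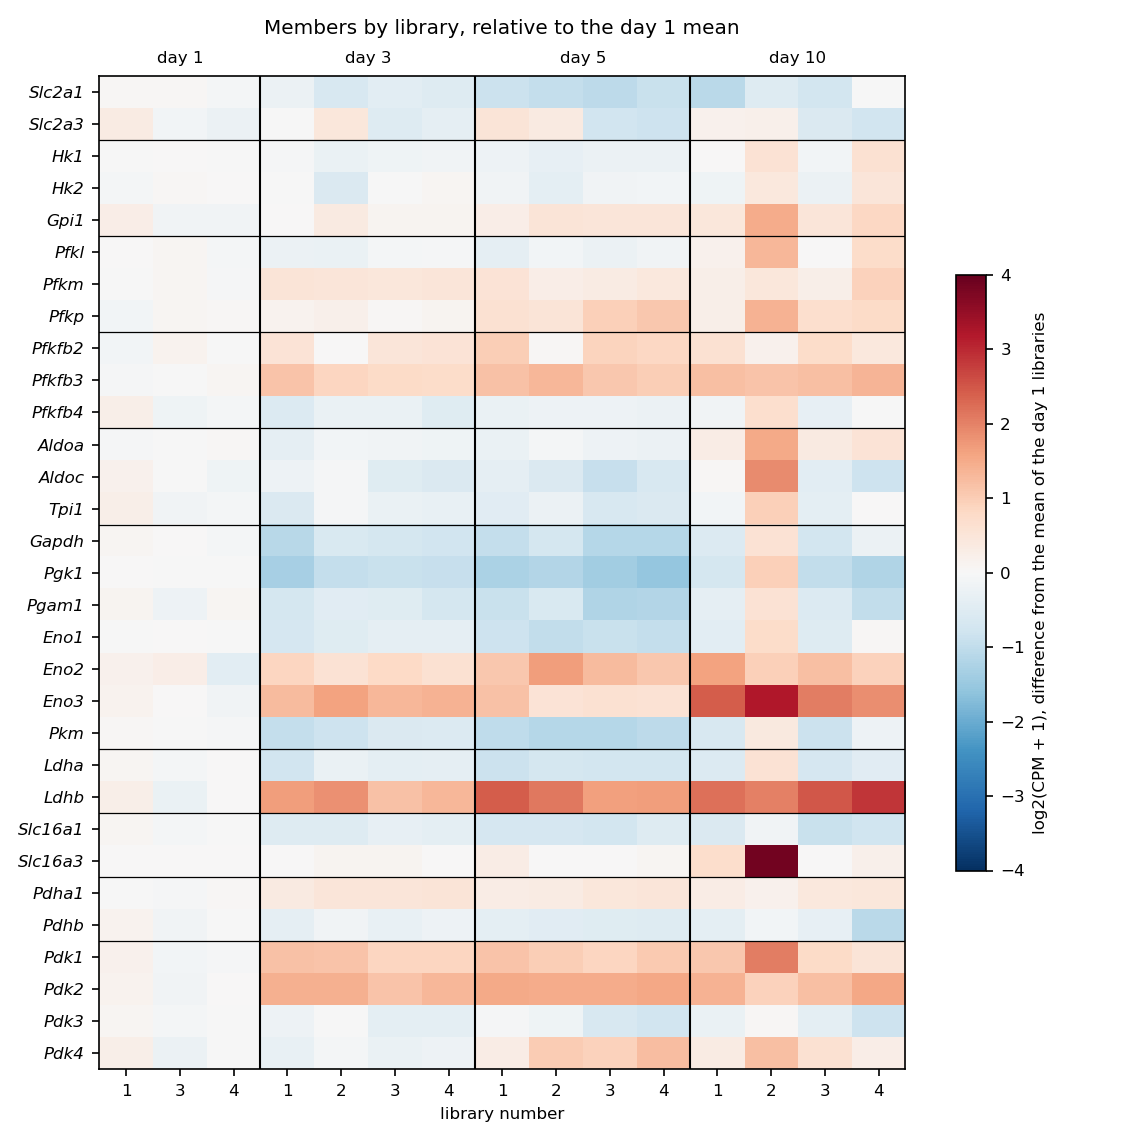
Level of each of the 31 genes (lines, grouped by role) in each of the 15 libraries (columns), as the difference of log2(CPM + 1) from the mean of the day 1 libraries; red is higher and blue is lower. Ldhb, Eno3, Pfkfb3, Pdk1 and Pdk2 are red on days 3, 5 and 10, Gapdh, Pgk1 and Pkm are blue on days 3 and 5, and library 2 of day 10 is redder than its neighbours for most genes.

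A gene was tested where its mean over the 4 day means was at least 1 CPM, which held for 30 of the 31 (all but Slc16a3) and for 12109 genes in all. It is said to have risen or fallen where limma's test on log2(CPM + 1) gave a Benjamini-Hochberg adjusted p under 0.05 over those 12109 genes. The comparisons with day 1 share its 3 libraries. By day 3, 8 of 30 rose, when 15.7% of all genes did, and 4 fell, against 16.1%. By day 5, 11 rose (25.2% of all genes did) and 9 fell (24.8%). By day 10, 13 rose (24.3%) and 3 fell (25.1%). Median log2 differences from day 1 over the 30 were -0.18, -0.20 and 0.23 on days 3, 5 and 10, with -0.02, 0.01 and -0.01 over all genes tested.

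These calls are from the fit without the library number as a block, and same-numbered libraries correlated at over 0.1 in every pair of each comparison but day 10 against day 1. Pairs of different numbers reached 0.549, and 9 of 15 libraries were closest to their own number. With the number as a block, 7 genes in place of 4 fell by day 3, when 20.7% of all genes did, and 1 in place of 0 from day 3 to day 5 (5.98%). Past the test with the block alone were Ldha (-0.56, adjusted p = 0.0343), Pgam1 (-0.74, 0.012) and Pdk3 (-0.34, 0.0497) as lower and Pfkfb2 (0.54, 0.00406) as higher on day 3. On day 5 these were Tpi1 (-0.62, 0.00863) and Pdk3 (-0.50, 0.0055) as lower than day 1, and Eno3 (-0.66, 0.0484) as lower than day 3. From day 5 to day 10, Gapdh (0.74, 0.0152), Pgam1 (0.65, 0.0383) and Tpi1 (0.58, 0.031) passed as higher with the block. In these 4 comparisons, 0 of the calls made without the block were lost with it. The share of all genes called went with the block to 8.18% higher from day 3 to day 5, and to 7.19% higher and 5.25% lower from day 5 to day 10.

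Each library number was also left out in turn from all days. Of the genes called against day 1, 4 of 12 on day 3, 11 of 20 on day 5 and 8 of 16 on day 10 kept the call in every such omission, and 0 of 2 and 1 of 6 did in the later steps. Calls that no single library removed, but a number did, were those of Pdha1 and Pdk1 on day 3 (adjusted p up to 0.0679 and 0.0727), and of Ldha, Pdha1, Pdk4, Pfkp and Pgam1 on day 5 (up to 0.0911, 0.0896, 0.108, 0.0538 and 0.0727). On day 10 they were those of Aldoa, Gpi1, Pdha1, Pfkm and Slc2a1 (up to 0.0701, 0.0616, 0.14, 0.0814 and 0.14), and from day 3 to day 5 that of Pdk4 (up to 0.164).

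Between neighbouring later days few of these genes passed. From day 3 to day 5, 2 rose (5.1% of all genes did) and 0 fell (4.03%) by limma, with 3 lower at an unadjusted p under 0.05, and edgeR and DESeq2 called 0 and 1 lower. From day 5 to day 10, 6 rose (3.75%) and 0 fell (2.02%), with 0 lower at an unadjusted p under 0.05 and 0 by edgeR and DESeq2. The count of 4 genes lower on day 3 depended on single libraries, and was 0 with libraries 3 and 4 averaged. It was 0 without library 1 or 3 of day 1 or library 1 of day 3, 1 without library 4 of day 1, 2 without library 2 of day 3, and 7 without library 2 of day 10. Leaving out library 2 of day 10 also turned the 3 genes lower on day 10 than on day 1 into 9, and the 6 higher on day 10 than on day 5 into 3. That 6 was 3 as well without library 3 or 4 of day 1, library 3 of day 3, or library 1 or 2 of day 5, and 1 without library 3 or 4 of day 5. The 2 higher on day 5 than on day 3 became 1 without library 3 or 4 of day 1, day 3 or day 5. The 0 lower on day 5 than on day 3 became 1 without library 1 of day 5 or day 10, and 2 without library 2 or 4 of day 10. The share of all genes in each omission is not given here, so these shifts cannot be read as particular to these genes. Among all alternatives, the count of all genes lower on day 3 reached 4308, against 1951 in the fit reported. The count of all genes higher from day 5 to day 10 ran from 14 to 1977, against 454.

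**Figure D2:**
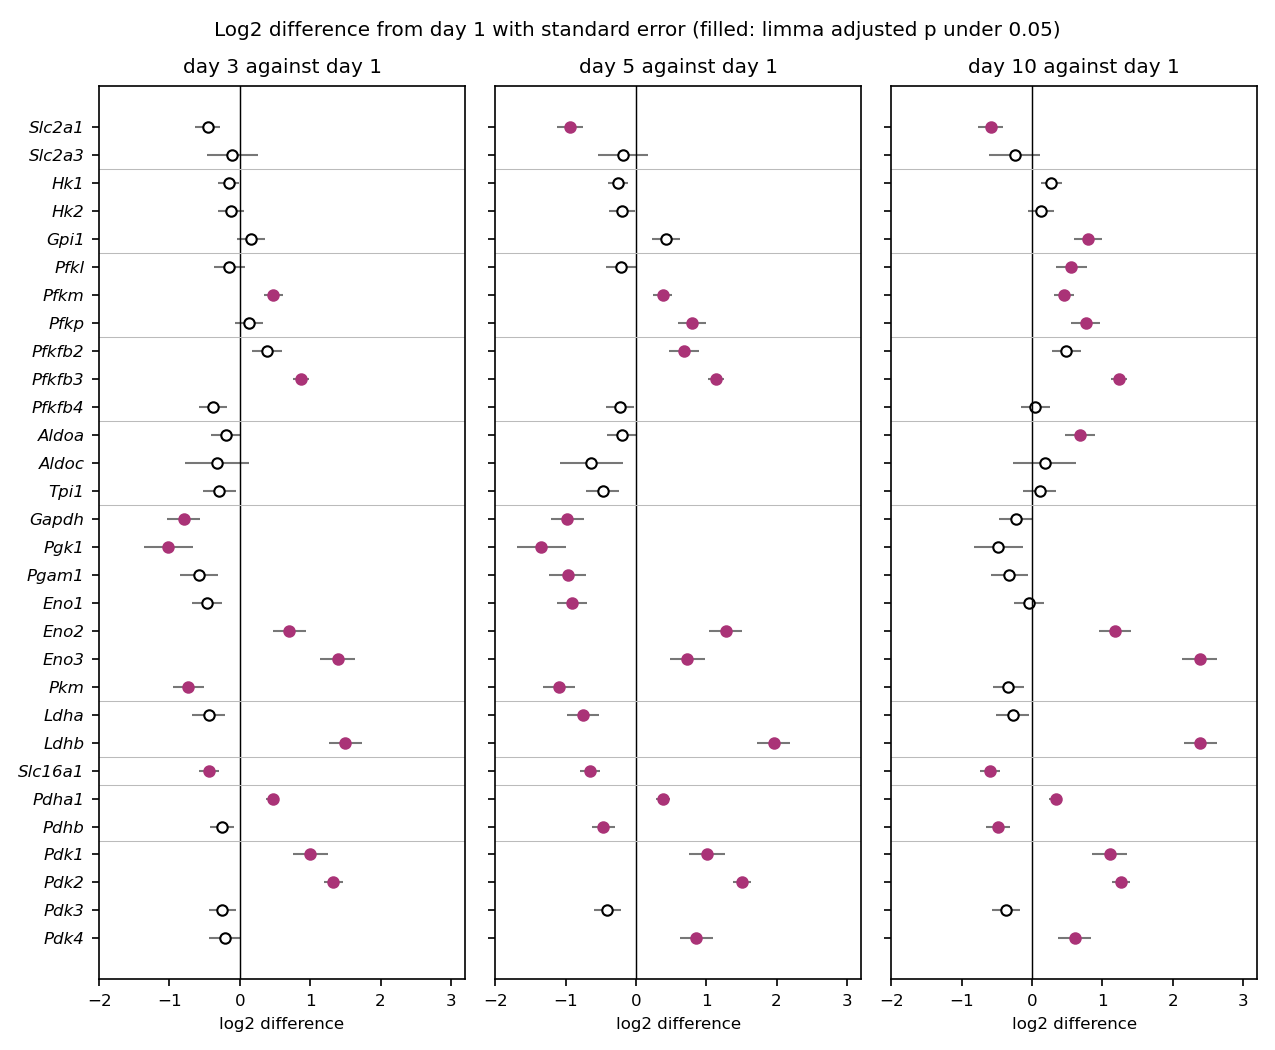
Log2 difference from day 1 (horizontal axis, with its standard error) of the 30 tested genes on days 3, 5 and 10, with filled points for an adjusted p under 0.05. Eno3 and Ldhb lie furthest to the right on day 10, both at 2.39, and Pgk1 furthest to the left on day 5, at -1.35.

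Glucose enters these cells through carriers of the Slc2 family. Slc2a1, which encodes GLUT1, the widespread basal glucose carrier, was at 107, 109 and 98.3 CPM on day 1, 88.1, 66.8, 77.5 and 72.9 on day 3, 57.4, 53.5, 50.7 and 55.8 on day 5 and 48.7, 73.0, 63.0 and 104 on day 10. All day 3 and day 5 libraries lay below day 1, and day 5 lay below day 3, while library 4 of day 10 reached the day 1 range. Slc2a1 fell by day 5 (log2 difference -0.93, SE 0.18, adjusted p = 0.000607) and was still lower on day 10 (log2 difference -0.58, SE 0.18, adjusted p = 0.0143). The day 3 value did not pass (log2 difference -0.46, SE 0.18, adjusted p = 0.0649), but did without library 1 or 4 of day 10 (adjusted p 0.00991 to 0.0279), and the step from day 3 to day 5, at -0.48 (SE 0.17, adjusted p = 0.0901), passed without the same libraries (0.0144 to 0.044). Slc2a3, encoding the high-affinity carrier GLUT3, ranged from 2.82 to 8.61 CPM over all libraries and passed in none of the 5 comparisons. Exon length here is that of all annotated exons of a gene merged, which may exceed the length of the RNA made. Per exon length, Slc2a3 stood at 2.72% ± 0.626 of Slc2a1 on day 1 and 3.82% ± 2.27 on day 10 (SD, n = 3 and 4 libraries).

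Hexokinase traps glucose in the cell as glucose-6-phosphate. Hk1, the widely expressed form, was at 130.2, 133 and 129 CPM on day 1, 126, 108, 115 and 119 on day 3, 113, 103, 111 and 111 on day 5 and 133, 194, 122 and 199 on day 10. The day 3 and day 5 libraries lay just below the day 1 range, and on day 10 libraries 2 and 4 stood above it, and library 1 just above it. Hk1 differed from day 1 by -0.25 on day 5 and 0.28 on day 10 (log2), neither past the test, and rose from day 5 to day 10 (log2 difference 0.53, SE 0.14, adjusted p = 0.0343). That call was lost without any 1 of 9 libraries (libraries 3 and 4 of day 1, library 3 of day 3, all of day 5, and libraries 2 and 4 of day 10; adjusted p up to 0.0875), and Hk1 passed on day 10 against day 1 without library 3 of day 10 (0.0226).

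Hk2, the inducible hexokinase found at the mitochondrial surface, was at 70.7, 77.8 and 76.3 CPM on day 1, 74.7, 50.0, 74.7 and 78.8 on day 3, 68.3, 57.3, 67.1 and 69.2 on day 5 and 66.9, 101, 62.9 and 105 on day 10. Library 2 was the lowest on days 3 and 5, and libraries 2 and 4 were again the highest on day 10. Hk2 passed in no comparison, with a day 10 difference of 0.12 (SE 0.19, adjusted p = 0.601). Per exon length, Hk2 was at 82.0% ± 3.77 of Hk1 on day 1 and 73.7% ± 1.52 on day 10. Gpi1, the isomerase that makes fructose-6-phosphate, was at 202, 151 and 152 CPM on day 1, 170.0, 214, 181 and 181 on day 3, 199, 239.7, 232 and 232 on day 5 and 226, 463, 232 and 294 on day 10. Its day 10 libraries all lay above days 1 and 3, and Gpi1 rose by day 10 (log2 difference 0.80, SE 0.20, adjusted p = 0.00396). Without library 2 of day 10, Gpi1 passed on day 5 too (adjusted p 0.0136). As the strand setting of the counting is unknown here, reads of the 741 exon bases that Gpi1 shares with Gm26762 on the opposite strand cannot be told apart, nor those of the 748 shared by Pfkp and Pitrm1. On the same strand, exons overlap for Pfkfb2 and Gm29427 (1262 bases), Pkm and Gm49759 (767) and Pfkm and Gm26513 (341). Reads there may have been split or lost in the counting under any strand setting.

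All 3 subunits of phosphofructokinase, the enzyme of the committed step of glycolysis, rose by day 10, when 24.3% of all genes did. Pfkm, the muscle-type subunit, was at 69.1, 72.9 and 67.2 CPM on day 1, 99.6, 98.0, 95.0 and 97.0 on day 3, 102, 84.1, 86.9 and 93.1 on day 5 and 82.4, 95.2, 81.6 and 132 on day 10. Every later library stood above day 1, and the differences were 0.48 (SE 0.14, adjusted p = 0.0161), 0.38 (SE 0.14, adjusted p = 0.0303) and 0.46 (SE 0.14, adjusted p = 0.0125) on days 3, 5 and 10. The call on day 3 was lost without library 1 or 4 of day 1 (adjusted p 0.0504 to 0.0619), and that on day 5 without any library of day 1 or without library 1 or 4 of day 5 (0.0527 to 0.0928).

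Pfkp, the platelet-type subunit, was at 32.8, 37.6 and 37.0 CPM on day 1, 39.6, 41.3, 37.0 and 39.0 on day 3, 55.3, 51.5, 70.7 and 76.6 on day 5 and 42.4, 94.4, 56.9 and 62.1 on day 10. Days 5 and 10 lay above days 1 and 3, which were close to each other. Pfkp rose by day 5 (log2 difference 0.79, SE 0.20, adjusted p = 0.00441), stayed higher than on day 1 on day 10 (log2 difference 0.76, SE 0.20, adjusted p = 0.00564), and rose between day 3 and day 5 (log2 difference 0.66, SE 0.19, adjusted p = 0.0381). The last call was lost without library 3 or 4 of day 1, library 1, 3 or 4 of day 3, or library 3 or 4 of day 5 (adjusted p 0.0534 to 0.118). Pfkl, the liver-type subunit, was at 126, 131 and 118 CPM on day 1, 106, 105, 119 and 121 on day 3, 97.9, 117, 106 and 113 on day 5 and 139.9, 316, 127 and 207 on day 10. Only day 10 holds high values, led by library 2, and libraries 1 and 3 of that day were near day 1. Pfkl rose by day 10 against day 1 (log2 difference 0.56, SE 0.22, adjusted p = 0.0477) and against day 5 (log2 difference 0.77, SE 0.21, adjusted p = 0.0411), but the first call was lost without any 1 of 13 of the 15 libraries (all but libraries 1 and 3 of day 10; 0.0533 to 0.127) and the second without any 1 of 12 (library 2 of day 3 was the further exception; 0.0501 to 0.108).

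The bifunctional enzymes of the Pfkfb family make and remove fructose-2,6-bisphosphate, a potent activator of phosphofructokinase. Pfkfb3, a form with high kinase activity and a known hypoxia target, was at 60.5, 61.7 and 66.5 CPM on day 1, 138, 114, 107 and 105 on day 3, 142, 158, 135 and 125 on day 5 and 147, 141, 147 and 164 on day 10. All later libraries lay above day 1, with no overlap and little spread on day 10. Pfkfb3 rose by 0.87, 1.14 and 1.24 (log2) on days 3, 5 and 10, from 62.9 ± 3.17 to 149.6 ± 9.89 CPM (SD, n = 3 and 4; adjusted p = 6.34e-05, 1.78e-06 and 9.01e-07). The step from day 3 to day 5, at 0.27 (SE 0.10, adjusted p = 0.12), passed without library 1 of day 3 (0.0359).

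Pfkfb2, the heart-type form, was at 16.8, 20.4 and 18.1 CPM on day 1, 27.0, 18.5, 25.8 and 27.2 on day 3, 37.3, 19.0, 34.8 and 33.6 on day 5 and 28.4, 20.8, 31.5 and 25.2 on day 10. Library 2 stood low on days 3, 5 and 10, while the other libraries of those days were all above day 1. Pfkfb2 rose by day 5 (log2 difference 0.69, SE 0.21, adjusted p = 0.0136), a call lost without library 1 of day 1 (adjusted p 0.0535). The day 10 value was 0.49 (SE 0.21, adjusted p = 0.0659), and passed without library 2 of day 5 or of day 10 (0.0182 to 0.0318). Pfkfb4, a form known from testis and tumours, ranged from 4.97 to 12.8 CPM and passed in no comparison.

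Aldolase and triose phosphate isomerase split the sugar and interconvert its triose products. Aldoa, the muscle-type aldolase and the main one here, was at 281, 284 and 298 CPM on day 1, 226, 264, 259.8 and 258 on day 3, 237, 273, 251 and 246 on day 5 and 353, 826, 371 and 422 on day 10. All day 10 libraries stood above all earlier ones, and library 2 was far above the other 3. Aldoa rose by day 10 against day 1 (log2 difference 0.68, SE 0.21, adjusted p = 0.0153) and against day 5 (log2 difference 0.87, SE 0.20, adjusted p = 0.0189). Without library 2 of day 10 the differences were 0.40 (adjusted p 0.00509) and 0.60 (0.00312), and the call against day 5 was lost without library 3 or 4 of day 5 (0.0584 to 0.0585). Aldoc, the brain-type aldolase, lay between 0.061 and 1.28 CPM in 14 libraries and at 6.54 CPM in library 2 of day 10, and Tpi1, the isomerase, ranged from 172 to 511 CPM. Neither Aldoc nor Tpi1 passed in any comparison of the fit without the block. With it, Tpi1 passed as lower on day 5 than on day 1 (adjusted p = 0.00863) and higher on day 10 than on day 5 (0.031). Without library 2 of day 10, both passed as lower on day 5 than on day 1, Aldoc at -0.63 (0.0351) and Tpi1 at -0.47 (0.0148), and Tpi1 passed as higher on day 10 than on day 5 without library 3 of day 10 (0.75, 0.0469).

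In lower glycolysis, from triose phosphate to pyruvate, 5 of 7 genes fell by day 5, when 24.8% of all genes did, and the other 2, both enolase forms, rose (25.2% of all genes). Gapdh, the enzyme that oxidises the triose and a common reference gene, was at 354, 334 and 313 CPM on day 1, 153, 218, 204 and 198 on day 3, 173, 205, 152 and 149.9 on day 5 and 226, 499.9, 200.4 and 284 on day 10. Days 3 and 5 lay wholly below day 1, while day 10 spread from below to above it. Gapdh fell by day 3 (log2 difference -0.80, SE 0.24, adjusted p = 0.019) and day 5 (log2 difference -0.98, SE 0.24, adjusted p = 0.00321). The day 3 call was lost without library 1 or 3 of day 1 or library 1 of day 3 (adjusted p 0.0553 to 0.0648). Against day 5, Gapdh on day 10 was at 0.74 (SE 0.22, adjusted p = 0.0591), and passed without library 1 or 3 of day 10 (0.0224 to 0.0485).

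Pgk1, a kinase that makes ATP in the pathway and is a textbook hypoxia target, was at 129.6, 126 and 127 CPM on day 1, 50.3, 65.9, 68.6 and 67.1 on day 3, 52.4, 55.7, 47.8 and 42.9 on day 5 and 78.3, 246, 64.4 and 55.1 on day 10. Days 3 and 5 lay wholly below day 1, and on day 10 library 2 was the highest of all while the other 3 remained below day 1. Pgk1 fell by day 3 (log2 difference -1.01, SE 0.35, adjusted p = 0.0377) and day 5 (log2 difference -1.35, SE 0.35, adjusted p = 0.00512). The day 3 call was lost without any 1 of the 7 libraries compared (adjusted p 0.0558 to 0.0949). Pkm, the kinase that forms pyruvate, had a mean of 1398 ± 48.8 CPM on day 1, 847 ± 113 on day 3, 656 ± 25.5 on day 5 and 1176 ± 478 on day 10 (SD, n = 3, 4, 4 and 4). Pkm fell by day 3 (log2 difference -0.73, SE 0.22, adjusted p = 0.0223) and day 5 (log2 difference -1.09, SE 0.22, adjusted p = 0.00102) and rose from day 5 to day 10 (log2 difference 0.76, SE 0.21, adjusted p = 0.0454). The day 3 call was lost without any 1 library of day 1 or without library 1 of day 3 (0.0575 to 0.0693), and the rise from day 5 without any 1 of 13 libraries (all but libraries 1 and 3 of day 10; 0.0507 to 0.119).

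Pgam1, the phosphoglycerate mutase, and Eno1, the main enolase, act between Pgk1 and Pkm. Pgam1 fell from 39.1 ± 4.57 CPM on day 1 to 19.7 ± 3.97 on day 5 (log2 difference -0.97, SE 0.27, adjusted p = 0.0072), and Eno1 from 296 ± 3.23 to 157 ± 8.19 (log2 difference -0.91, SE 0.21, adjusted p = 0.00261). The Pgam1 value on day 10 against day 5, at 0.65 (SE 0.25, adjusted p = 0.128), passed without library 4 of day 10 (adjusted p 0.0392). Eno1 rose again from day 5 to day 10 (log2 difference 0.87, SE 0.20, adjusted p = 0.0202), a call lost without library 3 or 4 of day 5 (0.0601 to 0.0619). Without library 2 of day 10, day 3 passed too as lower than day 1 for Pgam1 (0.0167) and Eno1 (0.0109), as did day 5 against day 3 for Eno1 (0.0261). Of the 50-base windows of their exons, 53.9% for Pgk1, 36.2% for Pgam1, 26.0% for Eno1, 25.8% for Pkm and 24.7% for Gapdh recur in another annotated gene, so reads there may have been split or lost in the counting.

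Eno3, the muscle enolase, was at 17.7, 16 and 14.2 CPM on day 1, 39.6, 50.4, 41.3 and 42.9 on day 3, 37.2, 24.0, 25 and 24.3 on day 5 and 90.7, 156, 68.4 and 60.6 on day 10. Every later library stood above day 1, day 5 dipped below day 3, and day 10 was the highest. Eno3 rose by day 3 (log2 difference 1.39, SE 0.25, adjusted p = 0.000851), day 5 (log2 difference 0.73, SE 0.25, adjusted p = 0.023) and day 10 (log2 difference 2.39, SE 0.25, adjusted p = 3.46e-06), and again between days 5 and 10 (log2 difference 1.65, SE 0.23, adjusted p = 0.000834). The day 5 call was lost without library 3 or 4 of day 1 or library 1 of day 5 (adjusted p 0.0561 to 0.0843), and the difference of day 5 from day 3, at -0.66 (SE 0.23, adjusted p = 0.0901), passed without library 1 of day 5 or library 2 or 4 of day 10 (0.0152 to 0.0488). Without library 2 of day 10, Eno3 was 2.11 higher on day 10 than on day 1. Per exon length, Eno3 went from 16.8% ± 1.89 of Eno1 on day 1 to 97.6% ± 27.3 on day 10. That share depends on the merged lengths, 1739 bases for Eno3 and 5379 for Eno1. In CPM, the day 10 means were 93.9 for Eno3 and 305 for Eno1, so equal RNA levels cannot be read from it. Shared windows made up 0% of Eno3 and 26.0% of Eno1.

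Eno2, the neuronal enolase, was at 0.914, 1.01 and 0.247 CPM on day 1, 2.04, 1.5, 1.93 and 1.57 on day 3, 2.59, 4.32, 3.05 and 2.58 on day 5 and 4.18, 2.30, 2.88 and 2.18 on day 10. It was low throughout, with 33 reads in all on day 1, and all later libraries lay above day 1. Eno2 rose on each day against day 1, by 0.71 (SE 0.23, adjusted p = 0.0288), 1.27 (SE 0.23, adjusted p = 0.000337) and 1.18 (SE 0.23, adjusted p = 0.000654), and the day 3 call was lost without library 4 of day 1 or library 1 or 3 of day 3 (adjusted p 0.063 to 0.165). Of 10 skeletal muscle markers, 2 passed the filter on low values, and both (Acta1 and Tnnc2) rose by day 10, when 24.3% of all genes did. Ckm, Myh1, Myh4 and Myog were at 0 in every library. The summed muscle markers were 3.38 to 4.08 CPM on day 1 and 11.3 to 27.1 on day 10. Of 8 neuron markers 2 passed the filter, Map2 fell by day 10, when 25.1% of all genes did, and Snap25, Syp, Rbfox3 and Nefl were at 0. The neuron sum went from 65.4 to 72.4 CPM on day 1 to 11.5 to 57.3 on day 10, and the part of these markers in the Eno2 and Eno3 results was not tested.

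**Figure D3:**
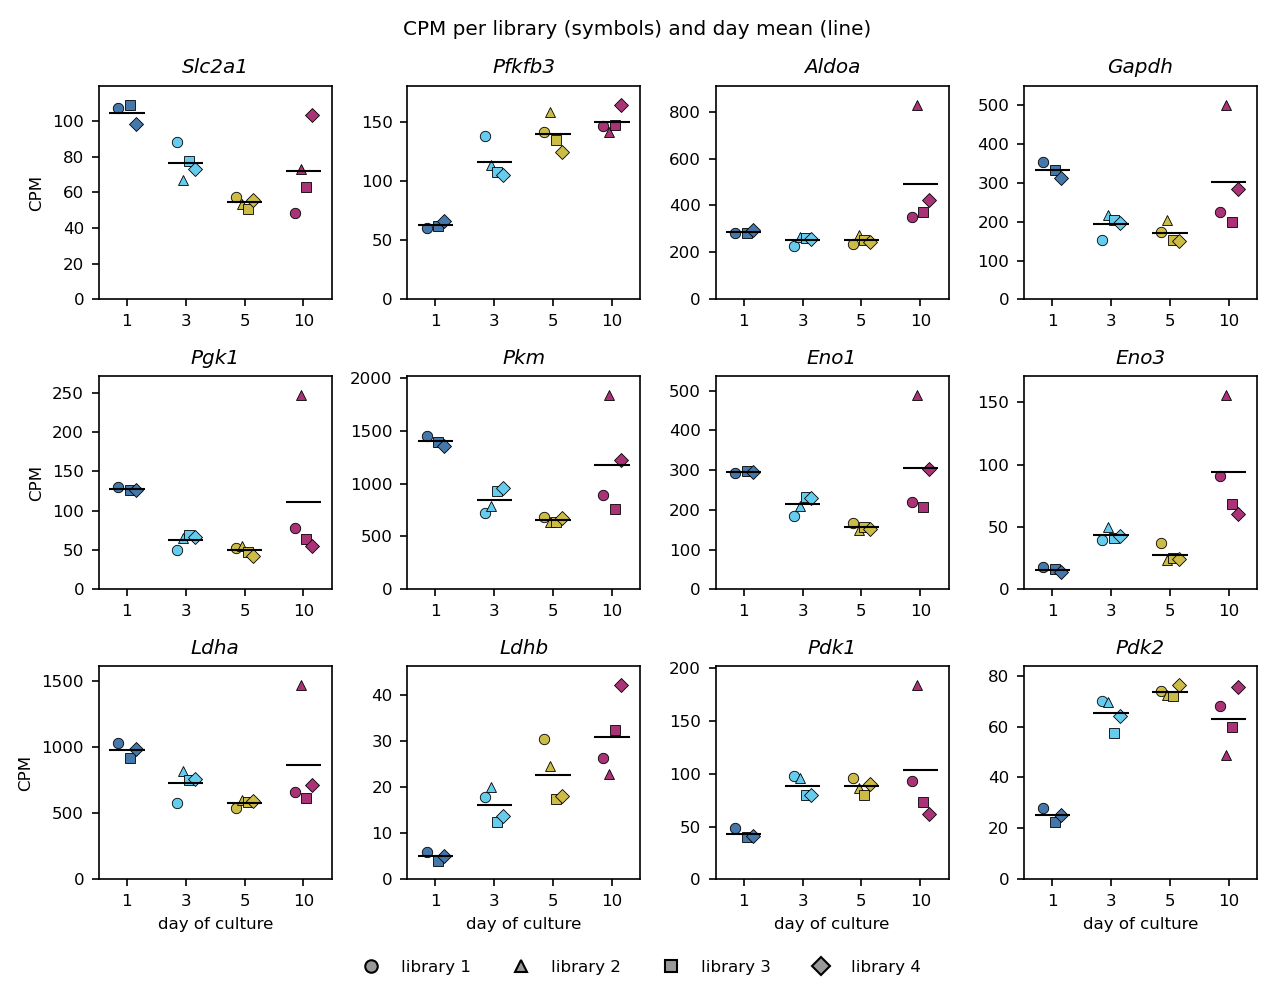
CPM in each library (symbols by library number) and the day mean (line) of 12 genes on days 1, 3, 5 and 10. Slc2a1, Gapdh, Pgk1, Pkm, Eno1 and Ldha are lowest on day 5, Pfkfb3, Ldhb, Pdk1 and Pdk2 are above day 1 in all later libraries, and the triangle of library 2 is far above the other 3 on day 10 for Aldoa, Pgk1 and Ldha.

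The RNA levels of the lactate dehydrogenase chains moved in opposite directions by day 5, and so came closer together. Ldha, whose chain is known to favour making lactate from pyruvate, was at 1033, 923 and 990.1 CPM on day 1, 581, 818, 750.2 and 758 on day 3, 543, 602, 589 and 593 on day 5 and 664, 1468, 619 and 716 on day 10. Days 3 and 5 lay below day 1 with no overlap, and on day 10 library 2 was the highest of all while the other 3 stayed below day 1. Ldha fell by day 5 (log2 difference -0.75, SE 0.23, adjusted p = 0.0135), a call lost when all libraries numbered 1, 3 or 4 were left out (adjusted p 0.066 to 0.0911). The day 3 value was -0.44 (SE 0.23, adjusted p = 0.158), which passed without library 2 of day 10 (0.0144). With all libraries, the Ldha value on day 10 was -0.27 (SE 0.23, adjusted p = 0.34) and did not pass. Ldhb, whose chain favours the oxidation of lactate in heart and other oxidative tissue, was at 6.03, 3.96 and 5.01 CPM on day 1, 17.9, 20.1, 12.5 and 13.8 on day 3, 30.5, 24.6, 17.4 and 18.1 on day 5 and 26.5, 22.9, 32.4 and 42.2 on day 10. All later libraries lay above day 1, and all of day 10 above day 3. Ldhb rose by 1.5 (SE 0.23, adjusted p = 0.000326), 1.96 (SE 0.23, adjusted p = 1.15e-05) and 2.39 (SE 0.23, adjusted p = 2.04e-06) on days 3, 5 and 10.

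Ldha nevertheless remained the larger of the pair. Per exon length, Ldhb stood at 1.07% ± 0.163 of Ldha on day 1, 4.76% ± 1.37 on day 3, 8.29% ± 2.61 on day 5 and 8.79% ± 4.03 on day 10 (SD, n = 3, 4, 4 and 4 libraries). Library 2 of day 10 held the lowest share of that day, 3.29%. Windows shared with other genes made up 9.03% of Ldha and 21% of Ldhb.

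**Figure D4:**
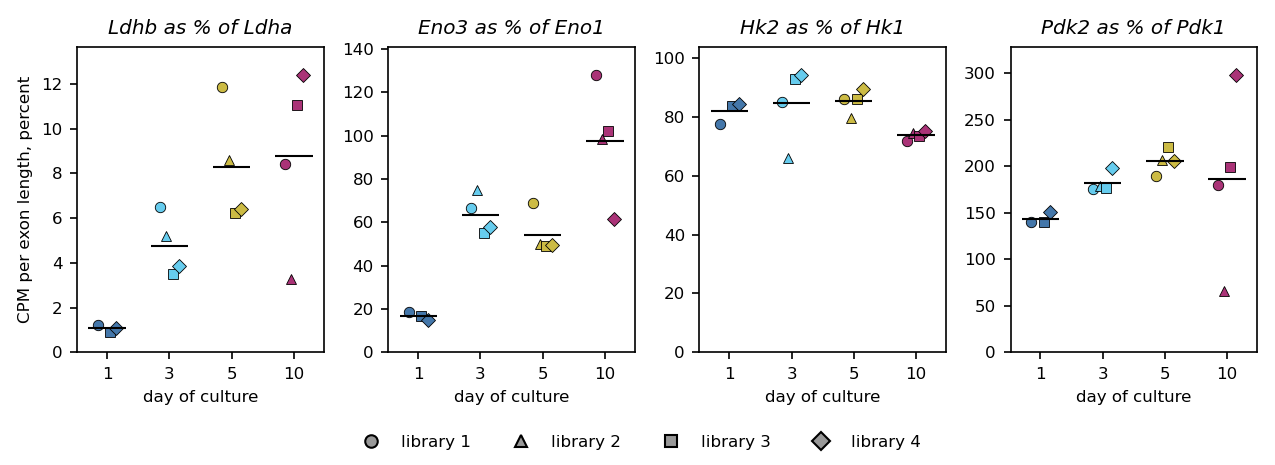
Level of one gene as a percentage of its partner in each library (symbols) with the day mean (line), per length of all annotated exons merged. The pairs are Ldhb and Ldha, Eno3 and Eno1, Hk2 and Hk1, and Pdk2 and Pdk1. The shares depend on these lengths, which may exceed those of the RNA made. The mean Ldhb share goes from 1.07% on day 1 to 8.79% on day 10 and that of Eno3 from 16.8% to 97.6%, while Hk2 stays between 73.7% and 85.3% of Hk1 in the day means.

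Lactate leaves cells through the carriers of the Slc16 family. Slc16a1, encoding MCT1, the widespread two-way carrier, was at 231, 205 and 215 CPM on day 1, 150.4, 150.1, 172 and 166 on day 3, 135, 135, 130.0 and 152 on day 5 and 144, 198, 118 and 125 on day 10. No later library reached the day 1 range. Slc16a1 fell on each later day, with log2 differences of -0.44 (SE 0.14, adjusted p = 0.0289), -0.65 (SE 0.14, adjusted p = 0.00166) and -0.59 (SE 0.14, adjusted p = 0.00311) on days 3, 5 and 10, and the day 3 call was lost without any 1 library of day 1 or without library 1 or 2 of day 3 (adjusted p 0.0549 to 0.102). Slc16a3, encoding MCT4, the export carrier of strongly glycolytic cells, was at 0, 0 and 0 CPM on day 1, 0, 0.0787, 0.0744 and 0 on day 3, 0.225, 0, 0 and 0.0599 on day 5 and 0.633, 13.4, 0 and 0.151 on day 10. It had 0 reads in every day 1 library, which allows up to 0.183 to 0.216 CPM per library (3 reads, counting error only), and 233 of its 245 day 10 reads came from library 2. Slc16a3 was not tested, because its mean was below 1 CPM.

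Pyruvate dehydrogenase is the gate from pyruvate to the mitochondrion. Pdha1, its catalytic alpha subunit, was at 263, 262 and 279.5 CPM on day 1, 347, 378, 377 and 384 on day 3, 329, 338, 366 and 372 on day 5 and 329, 305, 356 and 369 on day 10. All later libraries lay above day 1. Pdha1 rose by 0.47 (SE 0.10, adjusted p = 0.00232), 0.38 (SE 0.10, adjusted p = 0.004) and 0.34 (SE 0.10, adjusted p = 0.00937); 603 bases of its exons overlap Map3k15 on the opposite strand, and since no source used here gives the strand setting of the counting, reads of the overlap cannot be told apart. Pdhb, the beta subunit, was at 93.5, 77.6 and 84.8 CPM on day 1, 66.6, 77.0, 68.9 and 73.1 on day 3, 64.0, 61.5, 60.9 and 59.5 on day 5 and 64.4, 78.6, 67.4 and 39.8 on day 10. Days 3 and 5 lay below day 1, and library 2 of day 10 reached its range. Pdhb fell by day 5 (log2 difference -0.46, SE 0.17, adjusted p = 0.0307) and day 10 (log2 difference -0.48, SE 0.17, adjusted p = 0.0262), calls lost without library 1 or 4 of day 1 (adjusted p up to 0.114 for day 5 and 0.0658 to 0.0998 for day 10) and, for day 5, also without library 3 or 4 of day 5 (from 0.0573). On day 3, Pdhb was at -0.25 (SE 0.17, adjusted p = 0.271), and passed without library 4 of day 10 (0.0385).

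The kinases that shut the complex rose in 3 of 4 cases by day 10, when 24.3% of all genes did, and for 1 of the 3, Pdk4, the call was lost in 8 of 15 omissions of 1 library. Pdk1, a textbook hypoxia target, was at 49.0, 39.8 and 41.4 CPM on day 1, 97.7, 95.6, 79.6 and 79.8 on day 3, 96.2, 86.2, 80.1 and 90.7 on day 5 and 93.1, 184, 73.6 and 62.2 on day 10. Every later library lay above day 1, and library 2 of day 10 was far above the others. Pdk1 rose by 1.00 (SE 0.25, adjusted p = 0.00795), 1.01 (SE 0.25, adjusted p = 0.00418) and 1.1 (SE 0.25, adjusted p = 0.00226), and by 0.79 on day 10 without library 2 of that day (adjusted p 0.000437). Pdk2, the most widely expressed kinase, was at 27.9, 22.7 and 25.4 CPM on day 1, 69.9, 69.5, 57.3 and 64.3 on day 3, 74.1, 72.5, 71.8 and 76.1 on day 5 and 68.2, 48.8, 59.7 and 75.5 on day 10. Its later libraries also lay above day 1, but library 2 of day 10 was the lowest of them. Pdk2 rose by 1.33 (SE 0.13, adjusted p = 7.32e-06), 1.51 (SE 0.13, adjusted p = 7.2e-07) and 1.27 (SE 0.13, adjusted p = 3.32e-06). Per exon length, Pdk2 was at 144% ± 6.15 of Pdk1 on day 1 and 206% ± 12.8 on day 5, and from 65.4% to 299% on day 10.

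Pdk4, the kinase known from fasting and fat oxidation, was at 10.05, 6.98 and 8.23 CPM on day 1, 6.63, 7.79, 6.84 and 7.05 on day 3, 10.36, 17.9, 16.5 and 20.7 on day 5 and 10.8, 20.5, 13.3 and 10.24 on day 10. Days 1 and 3 overlapped, and all of day 5 lay above both. Pdk4 rose by day 5 against day 1 (log2 difference 0.86, SE 0.23, adjusted p = 0.0071) and against day 3 (log2 difference 1.07, SE 0.22, adjusted p = 0.00869), and by day 10 against day 1 (log2 difference 0.61, SE 0.23, adjusted p = 0.043). The day 10 call was lost without library 3 or 4 of day 1, library 1, 3 or 4 of day 3, library 3 of day 5, or library 2 or 3 of day 10 (adjusted p 0.0521 to 0.157). Pdk3, the remaining kinase, ranged from 27.0 to 51.1 CPM and passed in no comparison of the fit without the block. With the block, Pdk3 passed as lower than day 1 on days 3, 5 and 10 (adjusted p = 0.0497, 0.0055 and 0.00894). Without the block, Pdk3 passed as lower than day 1 on day 5 without library 1 of day 5 (-0.53, 0.0418) and on day 10 without library 2 of day 10 (-0.50, 0.0421).

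For these genes, library 2 of day 10 stood apart from the other 3, but those 3 were not alike over all genes. Library 4 was the highest of that day for 35.5% of all genes. Its chi-square per degree of freedom was 113 against library 1 and 119 against library 3, while libraries 1 and 3 were at 59.6. Library 2 was at 102, 213 and 215 against libraries 1, 3 and 4. limma's array weight, low for libraries far from their day's mean, was 0.109 for library 4 and 0.287 for library 2. Library 2 was the highest of the 4 day 10 libraries for 20 of the 30 tested genes, where 28.9% of all genes were, and at least 2 times the median of the other 3 for 12 of 30, where 5.19% of genes were. Aldoc is in both counts and was tested only through this library: its mean was 1.01 CPM with it and 0.64 without, below the filter. Without Aldoc the counts were 19 and 11 of 29. The ratio was 3.82 for Pgk1, 2.50 for Pdk1, 2.28 for Eno3, 2.21 for Ldha and 2.06 for Pkm. It was below 1 for Ldhb (0.706), Pdk2 (0.715), Pfkfb2 (0.731), Eno2 (0.798), Pdha1 (0.856) and Pfkfb3 (0.959).

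Without that library, Gapdh (-0.50, adjusted p = 0.0168), Pgk1 (-0.95, 9.78e-05), Pgam1 (-0.63, 0.0103), Pkm (-0.57, 0.0101) and Ldha (-0.56, 0.00317) also passed as lower on day 10 than on day 1, beside Pdk3 and the 3 genes lower with it. Pfkl (0.30, 0.103) and Pdk4 (0.41, 0.118) no longer passed as higher. Against day 5, Hk1 (0.43, 0.0769), Pfkl (0.51, 0.0501) and Pkm (0.52, 0.0712) no longer passed, while Aldoa, Eno1 and Eno3 did. The rises of Ldhb, Eno3, Pfkfb3 and Pdk2 on day 10 were 2.52, 2.11, 1.26 and 1.38 without it, all past the test.

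Other genes moved in the same library. Of all genes tested, 28.9% were highest there among the day 10 libraries and 5.19% were at least 2 times the median of the others. Of 21 hypoxia response genes outside glycolysis, 13 were highest there and 10 were at least 2 times that median, with a sum of 3434 CPM against 1364 to 1593. Car9, a carbonic anhydrase, was at 249 CPM against at most 43.2. All 8 osteoblast markers were highest there and at least 2 times the median of the others, with a sum of 64477 CPM against 8089 to 20279, and 0 of 9 chondrocyte markers were highest there. Whether any of these genes passed the filter only through this library was not looked at. The part of these genes in the results above was not tested.

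**Figure D5:**
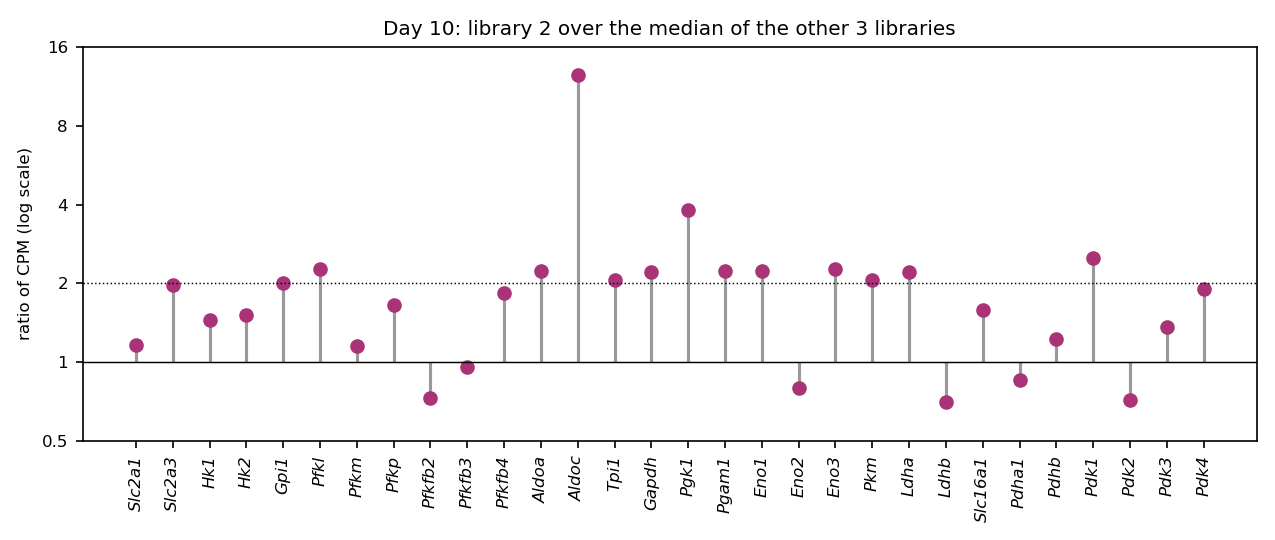
CPM in library 2 of day 10 over the median of the other 3 day 10 libraries (log axis), for the 30 tested genes; the dotted line marks a ratio of 2. Pgk1 (3.82) is the highest apart from Aldoc (12.5), which passed the filter on low values only through this library, and Ldhb (0.706) and Pdk2 (0.715) are lowest.

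Other genes around the pathway, from lists taken with earlier results of these data known, were set beside them for day 10 against day 1, when 24.3% of all genes rose and 25.1% fell. Of 8 genes tested from a list of further carriers and proteins that act on carriers, 6 rose and 0 fell. Txnip, an inhibitor of glucose uptake, went from a mean of 63.9 CPM to 402 (log2 difference 2.64, SE 0.20, adjusted p = 1.81e-07). Emb, a partner protein of lactate carriers, went from 29.9 to 123, and neither of these is itself a carrier. Of 13 genes of pyruvate entry and gluconeogenesis, 3 rose and 3 fell, with Pdp1, the phosphatase that reverses the kinases, from 40.4 to 120 CPM and Pdhx, a structural part of the complex, from 35.5 to 18.5. Of 13 other glycolysis genes 5 rose and 6 fell, and Ldhd, a D-lactate dehydrogenase, went from 1.92 to 5.37 CPM.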

How the data were processed

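Total RNA of wild-type growth plate-like chondrocytes was depleted of ribosomal RNA before library preparation, and taken from sorted cells, per the labels' protocols. STAR, featureCounts, edgeR and the build GRCm38 are named in the submitters' processing notes. Each deposited value is a normalized signal of 1 gene in 1 library: in each library 100% of values were whole multiples of the value of 1 read (tolerance 0.001), and the values equal CPM scaled by TMM factors, so the depth was recovered from them. The columns were assigned to days by their names.

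The deposited values were used on the scale log2(CPM + 1), keeping genes whose 4 day means averaged at least 1 CPM. limma 3.58.1 with a trended prior (R 4.3.3) was fitted to all 15 libraries, with Benjamini-Hochberg adjustment over 12109 genes and a threshold of 0.05. The script was tested on simulated data. The 31 genes and the other lists were chosen with earlier results of these data known. Values in every library are given for the members past the test with the widest difference between day means in their role, at most 3 a role, and for Slc2a1, Hk2, Ldha, Slc16a3, Pdk1 and Gapdh; from other lists the text names some of the 3 highest and 3 lowest that passed on day 10.

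Alternatives were edgeR 4.0.16 and DESeq2 1.42.0 on the recovered reads, other pseudocounts, filters and scalings, array weights, a replicate block, subsets of library numbers, and each library left out. Deviations of same-numbered libraries from their day's mean correlated at 0.19 to 0.30 on days 1 and 3, 0.22 to 0.34 on days 1 and 5, 0.35 to 0.73 on days 3 and 5, 0.23 to 0.31 on days 5 and 10, and -0.07 to 0.26 on days 1 and 10. Pairs of different numbers correlated at -0.598 to 0.549. By mean correlation over the other days, 9 of 15 libraries were closest to their own number. The numbers may pair libraries in all but the last comparison, a pairing that would rest on these correlations and not on the labels. The calls, SE and p reported are from the fit without the block unless the block is named. If the libraries are paired, that fit ignores the pairing. For day 10 against day 1, edgeR called 3061 genes higher with 2955 lower, and limma 2939 with 3044. Coordinates and exon lengths are from GENCODE M21 on GRCm38, where all 31 symbols matched, and promoters from RefSeq, which were matched for 30. Tables and figures were made with Python 3.11.15, pandas 2.3.3, numpy 2.4.6 and matplotlib 3.10.9.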

Additional observations from a re-analysis of the deposited data

Results flagged for a closer look

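In a group of 4 libraries, 1 library far from the other 3 was looked for in every gene and later day, 93 groups in all, and chance marks about 1 group in 20. There were 11 such values, 5 of them high values of library 2 on day 10: Aldoa at 826 CPM (next 422), Aldoc at 6.54 (next 1.08), Pgk1 at 246 (next 78.3), Ldha at 1468 (next 716) and Slc16a3 at 13.4 (next 0.633).

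On day 3, library 1 was low for Aldoa, at 226 CPM (next 258), and for Pgk1, at 50.3 (next 65.9). Library 2 of that day was low for Hk2, at 50.0 (next 74.7), and for Pfkfb2, at 18.5 (next 25.8). On day 5, Hk2 was low in library 2, at 57.3 CPM (next 67.1), and Eno3 was high in library 1, at 37.2 (next 25).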

How the results depend on the processing

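Counts of the 30 tested genes past the test are given as higher and lower. The counts of all genes moved between settings too. Those lower on day 3 against day 1 reached 4308 among the alternatives, against 1951 in the main fit. On day 5 against day 3 they ran from 0 to 3481 higher and 0 to 2964 lower (main fit 618 and 488). On day 10 against day 5 they ran from 14 to 1977 higher and 0 to 2074 lower (454 and 245). A moved count in this section is therefore not a result about these 30 genes. Array weights gave 12 lower on day 3, 16 on day 5 and 9 on day 10 against day 1, 8 higher and 12 lower on day 5 against day 3, and 14 higher and 2 lower on day 10 against day 5. With only the 2 days compared in the fit there were 8 lower on day 3 and 1 on day 10 against day 1, 3 lower on day 5 against day 3 and 1 higher on day 10 against day 5. Libraries 3 and 4, the closest pair on days 1, 3 and 5, were also averaged. Then 0 were lower on day 3, 0 higher on day 5 against day 3 and 1 higher on day 10 against day 5. Kept apart, they gave 4, 2 and 6, so these counts rest on treating them as separate libraries. Libraries 1 and 2 alone leave 1 library on day 1, which has no library 2, so their counts against day 1 are not given. They gave 0 higher in both later steps. Libraries 3 and 4 alone gave 2 lower on day 3, 8 on day 10 and 2 on day 5 against day 3. With the replicate block, 7 were lower on day 3 and 1 on day 5 against day 3, and the other counts stayed within 1.5 times. On day 10 against day 1, where not every same-numbered pair correlated above 0.1, Pdk3 (-0.46) and Pfkfb2 (0.64) passed with the block alone, and Pfkl and Pdk4 did not pass with it (adjusted p 0.0713 and 0.0653). DESeq2 gave 1 lower on day 5 against day 3 and 11 higher on day 10 against day 5, plain CPM 1 lower on day 5 against day 3, and no filter 1 higher there.

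Leaving out 1 library, or all of 1 number, gave 4 to 9 higher and 0 to 9 lower on day 3, 5 to 12 and 6 to 12 on day 5, and 8 to 13 and 1 to 9 on day 10, against day 1. It gave 0 to 3 and 0 to 2 on day 5 against day 3, and 1 to 8 and 0 to 0 on day 10 against day 5. On day 10 against day 1 the sign turned for Hk2 with array weights (-0.14) and for Pgk1 with libraries 1 and 2 alone (0.10). Neither gene was called there in the main fit, and the cause was not tested. For Pgk1 that setting sets 1 day 1 library, at 129.6 CPM, against 78.3 and 246 in libraries 1 and 2 of day 10. In the same comparison the sign also turned when libraries were left out for Eno1 (-0.30 to 0.12), Tpi1 (-0.16 to 0.30), Aldoc (-0.39 to 0.51) and Pfkfb4 (-0.15 to 0.23), none of them called. Over all alternatives 8 genes turned there, Slc2a3 and Pgam1 being the remaining 2. In the other comparisons such omissions turned the sign of 2 genes on day 3 and 1 on day 5 against day 1, 3 on day 5 against day 3, and 9 on day 10 against day 5; 0 genes that passed changed sign under any alternative. Depth limits Slc16a3, Aldoc and Eno2, whose levels on day 1 were near 1 CPM or below.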

Other observations

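Lists of neighbouring pathways were compared for day 10 against day 1 by limma over all 12109 genes. Of 17 genes of the tricarboxylic acid cycle, 5 fell, among them Idh3a, a subunit of isocitrate dehydrogenase, from a mean of 161 to 80 CPM (log2 difference -1.02, SE 0.14, adjusted p = 2.93e-05), and Sdhd, a subunit of succinate dehydrogenase, from 128 to 84.2. Of 8 pentose phosphate genes, 3 fell and 1 rose: G6pdx, the entry enzyme, went from 145 to 101 CPM, and H6pd, its counterpart in the endoplasmic reticulum, from 46.0 to 94.4. Of 9 glycogen genes, 3 rose and 2 fell: Ppp1r3c, which brings a phosphatase to glycogen, went from 9.13 to 37.5 CPM, and Ugp2, which makes UDP-glucose, from 265 to 108. These lists and the counts they gave were chosen with earlier results known, and 24.3% of all genes rose and 25.1% fell in this comparison.

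Of 21 hypoxia response genes outside glycolysis, 10 rose and 1 fell. Epas1, which encodes HIF-2 alpha, went from 0.219 to 19.8 CPM (log2 difference 4.03, SE 0.23, adjusted p = 2.06e-08), and Bhlhe40, a transcription factor, from 12.4 to 64.4 CPM. Car12, a carbonic anhydrase, went from 53.0 to 27.4 CPM. Among markers of cell types, 2 of 9 chondrocyte markers rose and 2 fell, 5 of 8 osteoblast markers rose and 0 fell, 2 of 4 adipocyte markers tested rose and 1 fell, and 1 of 3 macrophage and osteoclast markers tested rose and 0 fell, where 24.3% of all genes rose and 25.1% fell. In the same comparison, 0 of 6 endothelial and red cell markers reached the filter. In library 2 of day 10, all 8 osteoblast markers and 10 of 21 hypoxia response genes were at least 2 times the median of the others. The osteoblast sums of the other day 10 libraries were 16637, 8089 and 20279 CPM, and overlapped the 7885 to 11773 of day 1. Their hypoxia sums were 1364 to 1593 CPM, against 1058 to 1175 on day 1. The counts of these lists were not repeated without library 2.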
